A study of Mus musculus with 40 samples.

Results

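Elf3, Gata2, Gata3, Foxa1, Tfcp2l1, Grhl2, Pax2, Pax8 and Ehf, transcription factors of collecting duct and renal epithelial identity, were chosen by gene symbol and account for 9 of the 55414 genes in the expression table. The cells were mpkCCD, an immortalized mouse collecting duct line that responds to vasopressin by expressing the water channel gene Aqp2. All cells were grown on permeable Transwell supports and given 0.1 nM dDAVP, a vasopressin analog, for 72 h, so no library shows the untreated state. The controls were 11 libraries labelled control clone, unmodified and with the genotype WT, numbered here by replicate. The knockout groups were ATF1-KO (5 libraries), ATF1/CREB1-KO (3 libraries) and ATF1/CREB1/CREM-KO (3 libraries), which target members of the CREB family of cAMP-responsive factors. The series title places the comparison in the question of how these factors act in vasopressin control of Aqp2. Nothing in the labels ties the replicates of a knockout, or the numbered control replicates, to separate clones. The p-values then measure the spread between these libraries, which may be technical.

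These factors fall into 5 DNA-binding families. ELF3 and EHF are epithelium-restricted ETS factors. GATA2 and GATA3 are zinc finger factors, and GATA2 is known as an activator of Aqp2 in the collecting duct. FOXA1 is a forkhead factor able to bind closed chromatin. TFCP2L1 and GRHL2 belong to the grainyhead/CP2 group: the former patterns principal and intercalated cells together with Notch signalling, and the latter maintains the epithelial barrier. PAX2 and PAX8 are paired-box factors that specify the nephric duct and stay expressed in the mature collecting duct.

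The values are TPM, transcript abundances scaled to gene length and to a fixed total of 1000000 per library, so the sequencing depth is unknown. Library numbers follow each other in 3 sets, called runs here although the labels do not name them batches: control clones 1 to 5 with ATF1-KO, control clones 6 to 8 with ATF1/CREB1-KO, and control clones 9 to 11 with ATF1/CREB1/CREM-KO. The 6 libraries of the second run stood apart, with 7.29 to 15.44% of TPM in 90 ribosomal protein genes against 2.73 to 4.2% in the 16 others, and each knockout is therefore compared with the control clones of its own run. In the ATF1/CREB1/CREM-KO libraries 2.06 to 2.63% of TPM came from mitochondrial genes, against 1.21 to 1.42% in control clones 9 to 11, and in ATF1/CREB1-KO 3.20 to 4.31%, against 2.08 to 2.33% in control clones 6 to 8. The part of these shares in the results below was not tested. Transcript levels of the targeted genes check the labels only in part: Atf1 was at 17.51 to 37.79 TPM in ATF1-KO against 37.82 to 48.95 TPM in its controls, but overlapped its controls in ATF1/CREB1-KO (15.06 to 23.73 against 23.32 to 26.22 TPM) and in ATF1/CREB1/CREM-KO (23.67 to 40.81 against 39.78 to 40.52 TPM). Creb1 was at 2.72 to 3.86 TPM in ATF1/CREB1-KO against 4.98 to 6.69 TPM, and at 18.18 to 19.35 TPM in ATF1/CREB1/CREM-KO against 35.92 to 39.03 TPM, and Crem was at 26.02 to 33.81 TPM in ATF1/CREB1/CREM-KO against 19.98 to 24.87 TPM. Neither Crem nor, in every library, Atf1 RNA was below its controls in the libraries labelled ATF1/CREB1/CREM-KO, and every direction given for a knockout below refers to libraries so labelled.

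The sequences upstream of 3 starts are shown: Foxa1, which was below every own-run control in all 3 knockouts, Tfcp2l1, whose window held a cAMP response element half-site, and Aqp2, the gene the factors are set against. RefSeq promoters (GRCm38.p6) were matched for 7 of the 9 factors and for Aqp2, and the 250 bases before each start were searched on both strands for 6 motifs. Each sequence is written 5′ to 3′ on the gene's strand, without the 10 bases (Foxa1) or 1 base (Aqp2) that GENCODE annotates as exon, and capitals mark the motif matches.
Foxa1, chr12:57546122-57546361, minus strand: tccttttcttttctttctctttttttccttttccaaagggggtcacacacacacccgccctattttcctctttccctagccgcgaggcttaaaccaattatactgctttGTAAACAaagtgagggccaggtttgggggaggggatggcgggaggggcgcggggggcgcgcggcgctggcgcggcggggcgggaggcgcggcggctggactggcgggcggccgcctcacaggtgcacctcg
Tfcp2l1, chr1:118627695-118627944, plus strand: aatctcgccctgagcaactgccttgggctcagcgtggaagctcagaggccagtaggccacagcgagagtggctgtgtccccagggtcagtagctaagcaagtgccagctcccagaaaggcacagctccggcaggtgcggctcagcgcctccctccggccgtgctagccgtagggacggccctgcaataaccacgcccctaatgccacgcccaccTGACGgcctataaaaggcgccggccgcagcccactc
Aqp2, chr15:99578806-99579054, plus strand: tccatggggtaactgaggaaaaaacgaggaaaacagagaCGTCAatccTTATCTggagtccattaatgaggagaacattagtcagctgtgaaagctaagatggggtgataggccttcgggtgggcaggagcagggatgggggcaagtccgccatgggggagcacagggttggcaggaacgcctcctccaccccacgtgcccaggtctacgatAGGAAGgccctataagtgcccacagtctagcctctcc
The Foxa1 window lies inside the longer GENCODE gene model of Foxa1 (chr12:57540628-57546916), and its capitals, 141 to 135 bases before the start, match the forkhead motif TGTTTAC on the other strand. That motif occurs in 3.17% of 32851 promoters of the same length. The Tfcp2l1 window holds the cAMP response element half-site TGACG 36 to 32 bases before the start, and the Aqp2 window holds it on the other strand 211 to 207 bases before the start. The half-site occurs in 17.8% of promoters and the full element TGACGTCA in 1.55%, and no window of these factors or Aqp2 held the full element. The Aqp2 window also matched the GATA motif AGATAA, found in 9.99% of promoters, 202 to 197 bases before the start, and the ETS motif AGGAAG, found in 29.5%, 38 to 33 bases before it. Pax8 had 1 ETS match, 1 of the 3 Pax2 starts had a match to the grainyhead motif AACNNGTT, found in 3.64%, and the Elf3, Gata2 and Gata3 windows had no match to any of the 6. A match is a description of these letters and not a measured binding site.

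In control clones 1 to 5 the levels of the factors differed widely. Elf3 was the most abundant at 430.2 ± 45.9 TPM (SD, n = 5), followed by Pax8 at 284.2 ± 16.7 TPM, Ehf at 239.4 ± 32.5 TPM and Gata3 at 190.4 ± 26.0 TPM. Tfcp2l1 was at 75.8 ± 12.6 TPM, Grhl2 at 60.96 ± 4.83 TPM and Foxa1 at 44.5 ± 12.3 TPM. Pax2 was at 9.62 ± 1.49 TPM and Gata2 at 5.16 ± 4.79 TPM. Neighbours whose libraries overlapped in this order were Pax8 with Ehf, Ehf with Gata3, Tfcp2l1 with Grhl2, Grhl2 with Foxa1, and Pax2 with Gata2. The spread between these libraries differed among the factors: the lowest and the highest of the 5 differed 1.15-fold for Pax8, 1.23-fold for Grhl2 and 1.87-fold for Foxa1, and 9.50-fold for Gata2.

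Unmodified clones did not have the same levels in the 3 runs. In control clones 6 to 8 the means were 16.5% of those in control clones 1 to 5 for Elf3, 18.1% for Pax8, 19.7% for Grhl2 and 22.8% for Foxa1, whereas Pax2 was at 132.7% of it. Over 13295 genes the median difference between these 2 sets of control clones was -1.35 on the log2 scale, and 10555 genes were lower. The difference was -2.58 for Elf3, -2.44 for Pax8 and -2.25 for Grhl2, below that median, and -1.15 for Gata3, -0.71 for Gata2 and 0.38 for Pax2, above it. In control clones 9 to 11 the median gene was as in clones 1 to 5 (-0.00 on the log2 scale), and the factor that stood highest relative to them was Tfcp2l1, at 170.5%. The plot of TPM by library shows these steps between runs.

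**Figure D1:**
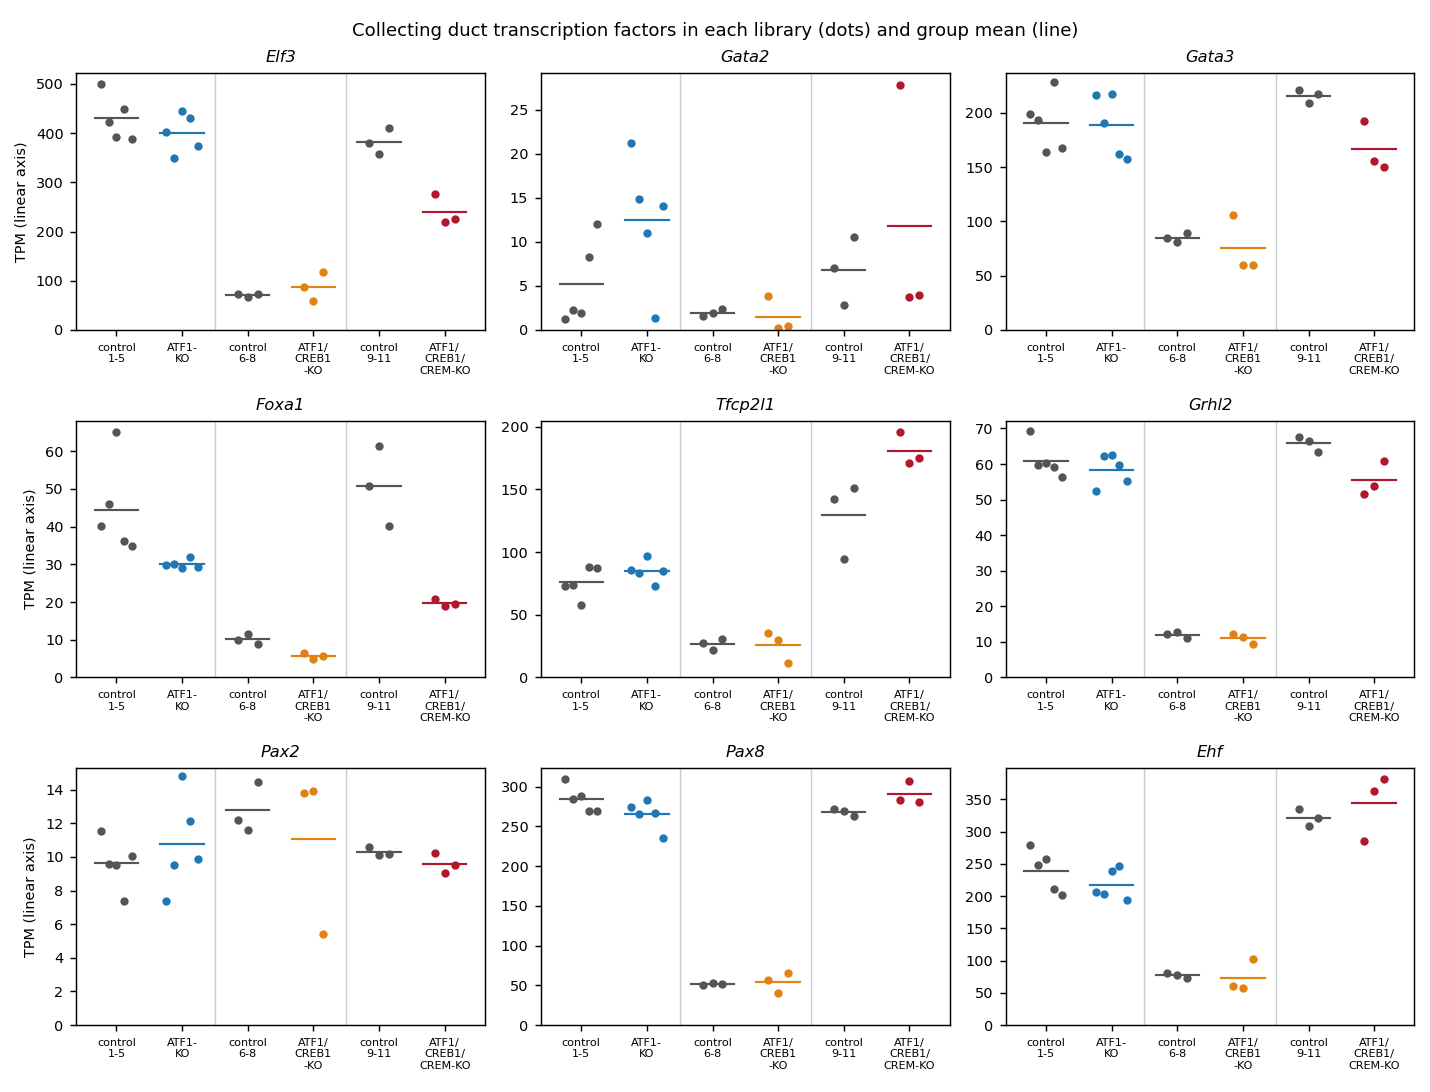
TPM of each factor (linear vertical axis from 0, own scale per panel) in the 22 libraries, with dots for libraries, horizontal lines for group means and vertical lines between runs. Foxa1 dots of each knockout lie below those of the control clones of the same run, and the group means of all factors except Pax2 are lower in both groups of the second run than in control clones 1 to 5.

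The changes were tested with limma on log2(TPM + 1) within each run, and a gene was called where its Benjamini-Hochberg adjusted p over all genes was under 0.05. Against their own-run controls, 0 of the 9 factors were called in ATF1-KO, where 0.0% of 13318 genes were called, and 1 of the 9 had an unadjusted p under 0.05, as did 7.61% of all genes. In ATF1/CREB1-KO 0 of 9 were called, where 0.0715% of 12579 genes were called, and 1 of 9 had an unadjusted p under 0.05, beside 9.53% of all genes. In ATF1/CREB1/CREM-KO 2 of 9 were called, both lower, where 9.17% of 13258 genes were called, 5.26% lower and 3.91% higher, and 5 of 9 had an unadjusted p under 0.05, beside 27.0% of all genes. The median change over the 9 factors there was -0.09 on the log2 scale, beside -0.05 over all genes. The libraries of ATF1/CREB1/CREM-KO and its controls did not overlap for 6 of the 9: 4 factors were below all controls, beside 20.2% of all genes, and 2 were above, beside 14.5%. The factors as a set were thus neither uniformly lower nor uniformly higher in any of the 3 knockouts.

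**Figure D2:**
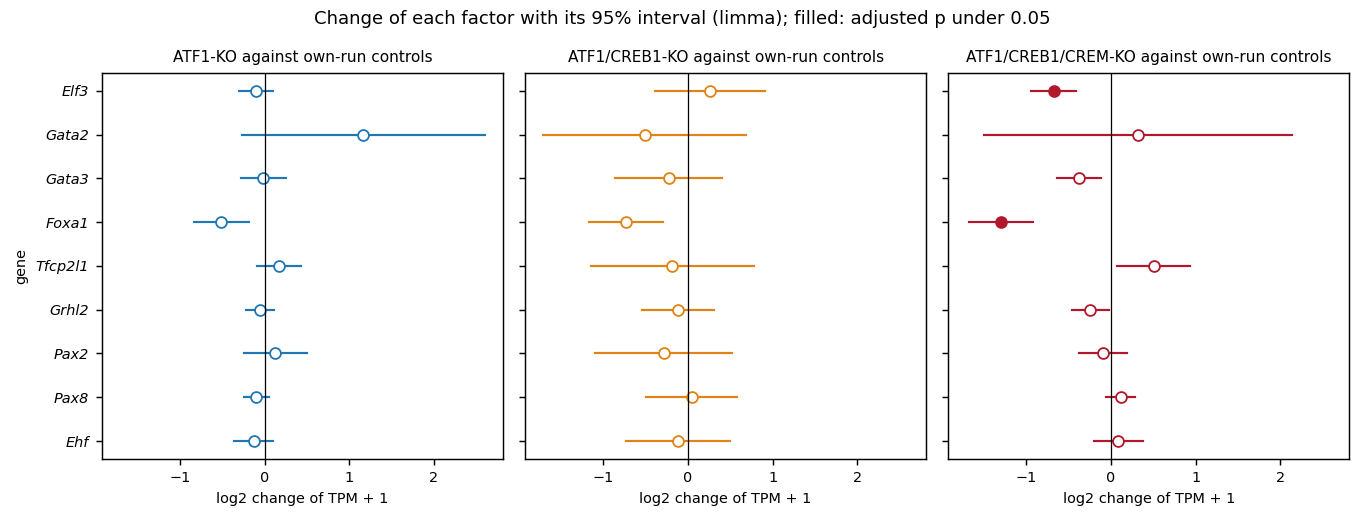
Change of each factor against the control clones of its run on the log2(TPM + 1) scale (horizontal axis), with the 95% interval from limma as lines and filled dots for adjusted p under 0.05. Filled dots are those of Foxa1 (-1.30) and Elf3 (-0.68) in ATF1/CREB1/CREM-KO, and the interval of Gata2 is the widest in each panel.

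Foxa1 (ENSMUSG00000035451) fell in ATF1/CREB1/CREM-KO to 38.9% of its own-run control mean. The 3 knockout libraries had 20.79, 18.88 and 19.48 TPM and control clones 9, 10 and 11 had 50.67, 61.45 and 40.07 TPM, so every knockout library was well below the lowest control. The log2 change was -1.30 (SE 0.16, adjusted p = 0.00744, limma), a 2.57-fold lower mean. In ATF1/CREB1-KO Foxa1 had 6.59, 4.84 and 5.69 TPM against 9.81, 11.60 and 8.97 TPM in control clones 6 to 8. These groups also did not overlap, but the change of -0.73 (SE 0.19) was not called (adjusted p = 0.338, limma); with the spread shared over 1 fit of all 22 libraries its adjusted p was 0.0267, in a fit that called 4.58% of genes. In ATF1-KO the 5 libraries had 29.83, 30.15, 29.11, 31.94 and 29.38 TPM and control clones 1 to 5 had 40.23, 46.09, 65.04, 36.29 and 34.80 TPM. Again no knockout library reached the lowest control, with a change of -0.51 (SE 0.15) that was not called (adjusted p = 0.555, limma). A two-sided exact permutation test of this comparison gave p = 0.00794, the lowest value reachable with 252 splits. Adjusted for the 27 tests of this kind it was 0.214. With 3 libraries against 3 the exact test cannot go below 0.1.

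The 3 knockouts have no control library in common, but all 3 target Atf1, and whether their lines share an origin is not shown here. Foxa1 was lower than every own-run control in all 3 knockouts. This held for 8 of 11795 genes tested in all 3 comparisons (0.0678%), the others being Foxc1, Clic5, Cpeb4, Dixdc1, Myo5c, Anapc13 and Dhx9; they were listed after their values were seen. Single comparisons gave such separation downward for 0.736% of genes in ATF1-KO, 12.4% in ATF1/CREB1-KO and 20.2% in ATF1/CREB1/CREM-KO. The spread of Foxa1 between libraries was narrower in ATF1-KO (SD 1.11 TPM, n = 5) and ATF1/CREB1/CREM-KO (SD 0.98 TPM, n = 3) than in their controls (12.3 and 10.7 TPM); that difference in spread was not tested. The call in ATF1/CREB1/CREM-KO was lost without control clone 9 (change -1.29, adjusted p = 0.0534), where the number of called genes overall fell from 1216 to 185, and against all 11 control clones of the 3 runs together (change -0.61, adjusted p = 0.703). The change of Foxa1 was 0.79 more negative in ATF1/CREB1/CREM-KO than in ATF1-KO (difference -0.79, SE 0.23, adjusted p = 0.0718, limma), which did not pass; without control clone 3 or control clone 11 it did.

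Elf3 (ENSMUSG00000003051, chr1:135253575-135258568, minus strand), the most abundant of the factors, fell in ATF1/CREB1/CREM-KO to 62.7% of its control mean. The knockout libraries had 275.31, 219.71 and 224.73 TPM and control clones 9 to 11 had 380.26, 358.21 and 409.90 TPM, with no overlap. The log2 change was -0.68 (SE 0.11, adjusted p = 0.0168, limma). This call rested on few libraries: leaving out control clone 9 or 11, or knockout replicate 2 or 3, ended it (adjusted p 0.0654 to 0.0806, changes -0.62 to -0.68), and against all 11 control clones the change was -0.09. In the other knockouts Elf3 overlapped its controls, at 349.04 to 444.53 TPM in ATF1-KO against 387.99 to 499.67 TPM, and at 88.15, 59.59 and 117.16 TPM in ATF1/CREB1-KO against 72.79, 66.48 and 73.54 TPM. The change in ATF1/CREB1/CREM-KO was 0.94 more negative than that in ATF1/CREB1-KO (difference -0.94, SE 0.25, adjusted p = 0.200, limma) and did not pass; it passed without ATF1/CREB1-KO replicate 2.

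Ehf (ENSMUSG00000012350, chr2:103263433-103303278, minus strand), the other ETS factor, was not called in any comparison. It had 285.94, 362.99 and 381.92 TPM in ATF1/CREB1/CREM-KO and 334.86, 308.03 and 321.00 TPM in the controls, which overlapped (change 0.09, 95% interval -0.20 to 0.37, adjusted p = 0.687, limma). In ATF1-KO its change was -0.13 (95% interval -0.36 to 0.10) and in ATF1/CREB1-KO -0.12 (95% interval -0.74 to 0.50). Other well expressed ETS genes, such as Elf1 (65.5 TPM in ATF1/CREB1/CREM-KO, 98.3 TPM in its controls) and Ets1 (50.0 and 55.8 TPM), were not called in any comparison.

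Of the GATA factors, Gata3 (ENSMUSG00000015619, chr2:9857078-9890034, minus strand) was abundant and Gata2 (ENSMUSG00000015053, chr6:88193891-88207032, plus strand) low and erratic. Gata3 had 192.61, 156.07 and 150.39 TPM in ATF1/CREB1/CREM-KO, below the 220.88, 209.22 and 216.92 TPM of control clones 9 to 11. The change of -0.38 (SE 0.11) was not called (adjusted p = 0.0771, limma), though it was without knockout replicate 1 (adjusted p = 0.00303). In ATF1-KO Gata3 was at 99.1% of its control mean (95% interval of the log2 change -0.28 to 0.25). Exons of Gata3 overlap those of 9230102O04Rik by 77 bases, and reads there cannot be told apart.

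Gata2 varied more between libraries of 1 group than between groups. Control clones 1 to 5 had 1.27, 2.26, 1.91, 8.31 and 12.07 TPM, and the ATF1-KO libraries had 21.22, 14.87, 10.97, 1.32 and 14.08 TPM. In ATF1-KO 4 of the 5 libraries were above 10 TPM, but replicate 4 was the second lowest of the run, and the change of 1.16 (95% interval -0.27 to 2.60) was not called (adjusted p = 0.704, limma). In ATF1/CREB1/CREM-KO replicate 1 had 27.77 TPM and the others 3.75 and 3.94 TPM, against 7.02, 2.78 and 10.61 TPM in the controls. Without that replicate the change of 0.31 turned to -0.54. In ATF1/CREB1-KO the libraries had 3.83, 0.25 and 0.47 TPM, against 1.64 to 2.34 TPM. The intervals are wide enough to hold a change of more than 2-fold in either direction in ATF1/CREB1/CREM-KO (-1.51 to 2.13 on the log2 scale).

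Gata4, a GATA factor of heart, gut and gonad that was in the list of 31 related family members, was higher than every own-run control in each of the 3 knockouts. It was listed at 0.00, 0.00 and 0.05 TPM in control clones 9 to 11 and had 8.98, 8.27 and 8.83 TPM in ATF1/CREB1/CREM-KO. It was called there, but it passed the filter on low values only through the knockout libraries, so the call adds no support beyond these values. ATF1-KO had 10.77, 7.74, 7.43, 8.92 and 12.94 TPM, while control clones 1 to 5 were listed at 4.46, 0.00, 0.00, 6.58 and 0.00 TPM, and it was not called. ATF1/CREB1-KO had 1.16, 0.95 and 0.84 TPM against 0.00, 0.02 and 0.00 TPM, below the filter on low values and therefore not tested. No fold is given against groups listed at 0. Of 14235 genes tested in at least 1 comparison, 8 (0.0562%) were above every own-run control in all 3. Gata1, Gata5 and Gata6 had group means of at most 0.34 TPM.

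**Figure D3:**
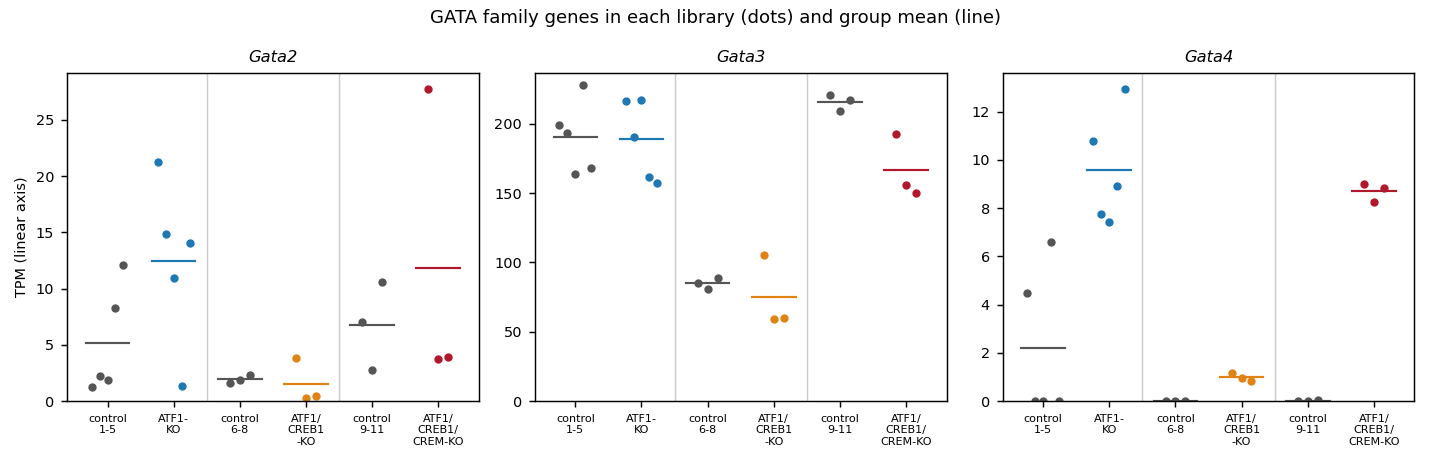
TPM (linear vertical axis from 0) of Gata2, Gata3 and Gata4 in the 22 libraries, with dots for libraries, horizontal lines for group means and vertical lines between runs. Gata4 is listed at 0 in 7 of the 11 control libraries and lies above the controls of its run in each knockout, Gata2 scatters within groups, and the Gata3 dots of ATF1/CREB1/CREM-KO lie below their controls.

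Tfcp2l1 (ENSMUSG00000026380, chr1:118627945-118685168, plus strand) was above its controls in ATF1/CREB1/CREM-KO, where Foxa1 was called lower, without passing the test. It had 195.40, 170.88 and 174.85 TPM in ATF1/CREB1/CREM-KO, above the 141.96, 94.65 and 151.11 TPM of control clones 9 to 11, at 139.6% of their mean. The change of 0.50 (SE 0.18) was not called (adjusted p = 0.132, limma). In ATF1-KO the 73.03 to 96.64 TPM overlapped the 57.50 to 87.72 TPM of the controls (change 0.17, 95% interval -0.09 to 0.43). In ATF1/CREB1-KO the libraries had 35.60, 29.80 and 11.45 TPM against 27.39, 21.89 and 30.80 TPM. The third of these was the lowest of all 22 libraries, and without it the change of -0.19 became 0.29. An snRNA gene, Gm23497, shares 130 exon bases with Tfcp2l1 and reached 46.7 TPM in 1 library, so part of its reads cannot be told apart from those of Tfcp2l1. Of 12 Notch genes linked to TFCP2L1 in the textbook account, 8 were tested in ATF1/CREB1/CREM-KO and 1 was called, beside 9.17% of all genes: Hes1, a Notch target gene, was at 57.7 ± 4.1 TPM against 81.5 ± 5.9 TPM (SD, n = 3 each; change -0.49, adjusted p = 0.0281, limma). That call held in 1 of 6 fits with 1 library left out, the one without knockout replicate 1 (adjusted p up to 0.0998 in the others). None of the Notch genes was called in ATF1-KO (10 tested, 2 with an unadjusted p under 0.05, beside 7.61% of all genes) or ATF1/CREB1-KO (8 tested, 0 with an unadjusted p under 0.05, beside 9.53%).

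Grhl2 (ENSMUSG00000022286, chr15:37233036-37363569, plus strand) was not called in any comparison. Its 51.65, 53.90 and 60.97 TPM in ATF1/CREB1/CREM-KO lay just below the 67.65, 66.40 and 63.28 TPM of the controls (change -0.24, SE 0.09, adjusted p = 0.153, limma). In ATF1-KO the change was -0.06 (95% interval -0.23 to 0.11) and in ATF1/CREB1-KO -0.12 (95% interval -0.55 to 0.31). An antisense gene, Gm16136, overlaps its exons by 169 bases and reached 128.7 TPM in 1 library; the library kit does not mark strand, so reads there cannot be told apart. Of 14 epithelial genes linked to GRHL2, 4 were called in ATF1/CREB1/CREM-KO, in both directions: 2 higher and 2 lower, with a median change of 0.12, beside 9.17% of genes called and a median of -0.05 over all genes. Cdh1, which encodes E-cadherin, rose from 817.6 ± 32.4 to 1245 ± 39 TPM (SD, n = 3 each; change 0.61, adjusted p = 0.00689, limma). Cldn8, a tight junction claudin of the collecting duct, fell from 185.21 to 304.31 TPM in the controls to 1.1, 16.1 and 23.18 TPM (change -4.67, adjusted p = 0.0245, limma), and Cldn3 fell by 0.38. Cldn8 was also uneven among controls, at 67.35 to 576.71 TPM in control clones 1 to 5 and 27.7 to 42.19 TPM in clones 6 to 8. It overlapped its own-run controls in ATF1-KO (15.66 to 179.65 TPM) and ATF1/CREB1-KO (0.13 to 43.83 TPM). The Cdh1 call held in each of the 6 fits with 1 library left out, but that of Cldn8 held in 2 of 6, without knockout replicate 1 or 3, and that of Cldn3 in 1 of 6, without knockout replicate 1 (adjusted p up to 0.101 and 0.102 in the others). Cldn8 was also lost with no filter on low values (adjusted p = 0.0597) and Cldn3 in 1 fit over all 22 libraries (adjusted p = 0.547). No gene of this list was called in ATF1-KO (2 of 14 with an unadjusted p under 0.05, beside 7.61% of all genes) or ATF1/CREB1-KO (0 of 14, beside 9.53%).

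Pax8 (ENSMUSG00000026976, chr2:24420560-24475599, minus strand) and Pax2 (ENSMUSG00000004231, chr19:44756045-44837871, plus strand) were not called in any comparison. Pax8 had 283.61, 307.80 and 280.60 TPM in ATF1/CREB1/CREM-KO and 272.37, 269.67 and 263.66 TPM in control clones 9 to 11. The groups did not overlap, but the change was small, at 0.11 (95% interval -0.06 to 0.29, adjusted p = 0.362, limma). Pax2 had 10.21, 9.02 and 9.52 TPM against 10.56, 10.11 and 10.19 TPM, which overlapped (change -0.09, 95% interval -0.37 to 0.18). In ATF1-KO the changes were -0.10 for Pax8 (95% interval -0.25 to 0.05) and 0.12 for Pax2 (95% interval -0.25 to 0.50). In ATF1/CREB1-KO replicate 3 stood apart for Pax2, at 5.44 TPM beside 13.81 and 13.93 TPM, and was the highest for Pax8, at 64.89 TPM beside 56.62 and 40.29 TPM. That library also had the lowest ribosomal protein share of its run, 7.29%. Of 12 nephric duct genes linked to PAX2, PAX8 and GATA3, 6 were tested in ATF1/CREB1/CREM-KO and 1 was called, beside 9.17% of all genes: Wnt9b, a nephric duct Wnt ligand, at 0.19 ± 0.06 TPM against 2.14 ± 0.59 TPM (SD, n = 3 each). It passed the filter on low values only through the controls, where it is high, and the call was lost in 4 of 5 fits with 1 library left out.

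The differences between knockouts in their own-run changes were tested in 1 limma fit over all 22 libraries. For the 9 factors 0 passed in any of the 3 pairs, beside 1.46% of 13295 genes for ATF1/CREB1-KO minus ATF1-KO, 3.57% for ATF1/CREB1/CREM-KO minus ATF1-KO and 0.188% for ATF1/CREB1/CREM-KO minus ATF1/CREB1-KO. Elf3 and Foxa1 had an unadjusted p under 0.05 in each of the last 2 pairs, beside 15.0% and 8.39% of all genes, and no factor had one in the first, beside 15.5%. A difference between knockouts was therefore not shown for any factor, and the difference for Tfcp2l1 between ATF1/CREB1/CREM-KO and ATF1/CREB1-KO, 0.69 (95% interval -0.13 to 1.51), shows how wide the remaining range is.

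Among 34 other renal epithelial factors, 20 were tested in ATF1/CREB1/CREM-KO, where 1 was called higher and 2 lower, beside 3.91% and 5.26% of all genes. Nr3c2, the mineralocorticoid receptor, rose from 1.30 ± 0.49 to 5.30 ± 0.26 TPM (SD, n = 3 each; change 1.47, adjusted p = 0.0119, limma). Hoxa10 fell by 0.66 and Hoxb9 by 0.39, both homeobox genes of posterior segments. With 1 library left out, Nr3c2 was called in 3 of 6 fits (adjusted p up to 0.0567 in the others, those without control clone 11 or knockout replicate 2 or 3), and Hoxa10 and Hoxb9 in 1 of 6 each, without knockout replicate 1 (up to 0.121 and 0.145 in the others). In 1 fit over all 22 libraries Hoxa10 and Hoxb9 were not called (adjusted p = 0.475 and 0.255), and Hoxa10 was also lost with no filter on low values. None of the 20 was called in ATF1-KO (3 with an unadjusted p under 0.05, beside 7.61% of all genes) or in ATF1/CREB1-KO (1 with an unadjusted p under 0.05, beside 9.53%). Of the 31 related family members 16 were tested in ATF1/CREB1/CREM-KO and Gata4 alone was called, beside 9.17% of all genes; the sister genes Foxa2 and Foxa3 had group means of 0.00 and of at most 0.24 TPM.

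Defining markers of the principal cell were present in part. Avpr2, the vasopressin receptor, was at 178.2 TPM in control clones 1 to 5 and Scnn1a, a sodium channel subunit, at 154.4 TPM, whereas the principal cell genes Aqp4, Scnn1b and Kcnj1 were at 1.49, 0.73 and 0.06 TPM. Of 15 intercalated cell markers, 5 had a mean of at least 1 TPM in control clones 1 to 5: Car2 (430.5 TPM), Atp6v1b1 (24.2 TPM), Rhcg (23.1 TPM), Aqp6 (11.2 TPM) and Dmrt2 (5.94 TPM). Foxi1, Atp6v1g3, Kit and Insrr were listed at 0 in at least 20 of the 22 libraries. The Rhcg mean was 4.46 TPM in ATF1-KO. The mean of control clones 1 to 5 rested mostly on 1 library at 108.1 TPM, so the 2 means do not show a fall. The Rhcg mean was 0.41 TPM against 4.80 TPM in ATF1/CREB1-KO and 0.76 TPM against 21.7 TPM in ATF1/CREB1/CREM-KO, without a call in any knockout. The summed TPM of 15 intercalated cell markers ranged from 372.4 to 668.3 in control clones 9 to 11 and from 246.8 to 610.0 in ATF1/CREB1/CREM-KO, most of it from Car2. Of 6 tested there, all 6 had negative changes and 1 was called, beside 9.17% of all genes: Aqp6 (change -2.21). The Aqp6 call held in 1 of 6 fits with 1 library left out, without knockout replicate 1 (limma, adjusted p up to 0.101 in the others). It was lost with no filter on low values (adjusted p = 0.0722, limma). The sum of 12 principal cell markers ranged from 1373 to 3440 and from 466.0 to 1211, in the same groups. Of 10 tested, Aqp2 (change -6.34) was called lower and Nr3c2 higher, beside 5.26% and 3.91% of all genes. The largest falls of the mean were in Aqp2 (1516 to 15.5 TPM) and Fxyd4 (528.7 to 141.8 TPM). The Hsd11b2 mean was 64.0 TPM in the controls and 216.0 TPM in ATF1/CREB1/CREM-KO. Neither Fxyd4 nor Hsd11b2 was called, and their spread between libraries is not given here. Of the 10 tested, 5 had negative changes, and the median change was 1.5e-05 on the log2 scale. The sum of 17 markers of other kidney cells ranged from 20.3 to 22.2 and from 3.29 to 30.4 TPM, with 9 of the 17 listed at 0 in all ATF1/CREB1/CREM-KO libraries. Of these 17, 2 were tested and 1 was called, beside 9.17% of all genes: Slc12a3, a distal tubule transporter, with 1.24 to 4.40 TPM against 0.04 to 0.14 TPM. It passed the filter on low values only through the knockout libraries, and its call was lost with no filter (adjusted p = 0.0758, limma) and in each of 5 fits with 1 library left out. No gene of these marker lists was called in ATF1-KO or ATF1/CREB1-KO, where 0.0% and 0.0715% of all genes were called. In these bulk libraries fewer cells of a type and less RNA per cell cannot be told apart.

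Aqp2 fell in ATF1/CREB1/CREM-KO, where it had 15.10, 16.05 and 15.31 TPM against 1627.08, 640.62 and 2279.29 TPM in control clones 9 to 11, 1.02% of their mean (adjusted p = 8.6e-04, limma). In the same libraries 7 of the 9 factors were not called, and Foxa1 and Elf3 kept 38.9% and 62.7% of their control means. In the other knockouts Aqp2 overlapped its own-run controls and was not called. It was at 150.5% of the control mean in ATF1-KO (change 0.56, 95% interval 0.04 to 1.08, adjusted p = 0.638, limma). In ATF1/CREB1-KO it was at 72.3% (change -0.36, 95% interval -1.23 to 0.52, adjusted p = 0.775, limma). In the second run, where Elf3, Pax8 and Grhl2 stood at less than 20% of control clones 1 to 5, the unmodified clones 6 to 8 had 855.29, 379.15 and 1029.00 TPM of Aqp2, 66.6% of the mean of clones 1 to 5. Levels there differed for most genes, with 10555 of 13295 lower and a median difference of -1.35 on the log2 scale. The factor and Aqp2 levels cannot be told apart from that difference between runs, and a relation between them was not tested.

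Across the 10 libraries of the first run, where Aqp2 ranged from 798.01 to 2350.94 TPM, none of the 9 factors was related to it after adjustment. Foxa1 had r = -0.52 (permutation p = 0.119, adjusted 0.358) and Spearman's rho = -0.75 (permutation p = 0.0170, adjusted 0.153). Gata2 had r = 0.58 and rho = 0.62 (permutation p = 0.0837 and 0.0614, adjusted 0.358 and 0.276), and Tfcp2l1 had r = 0.53 and rho = 0.49 (permutation p = 0.113 and 0.155, adjusted 0.358 and 0.349). The other 6 factors lay between r = -0.41 (Grhl2) and r = 0.34 (Pax2). Without the 2 libraries farthest from the median of Aqp2, ATF1-KO replicates 3 and 5, r was -0.33 for Foxa1, 0.52 for Gata2 and 0.30 for Tfcp2l1. With the group mean taken off each library r was -0.15, 0.43 and 0.38 for the same 3 genes. Over all 22 libraries with group means removed, Tfcp2l1 had r = 0.48 (permutation p = 0.00921, adjusted 0.0829), Foxa1 had r = -0.45 (permutation p = 0.0899, adjusted 0.270) and Gata2 had r = 0.40 (permutation p = 0.0406, adjusted 0.183).

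**Figure D4:**
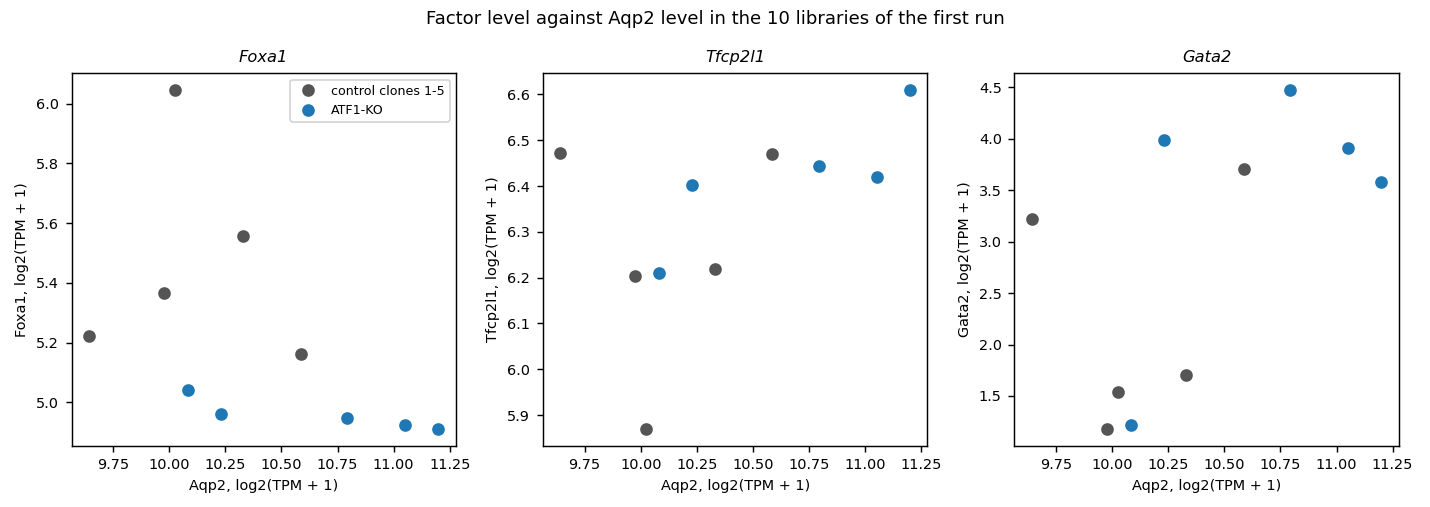
Level of Foxa1, Tfcp2l1 and Gata2 against that of Aqp2, each as log2(TPM + 1), in the 10 libraries of the first run, with gray dots for control clones 1 to 5 and blue dots for ATF1-KO. The Foxa1 panel shows the ATF1-KO dots in a narrow band below all controls, and r over the 10 dots is -0.52, 0.53 and 0.58 in the 3 panels.

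The order of libraries within groups gave a partial pattern. Foxa1 ran exactly opposite to Aqp2 in the 5 ATF1-KO libraries, in control clones 6 to 8, in control clones 9 to 11 and in ATF1/CREB1/CREM-KO, in the same order as Aqp2 in ATF1/CREB1-KO, and in neither order in control clones 1 to 5. In control clones 9 to 11, for example, the library with the least Aqp2 (640.62 TPM) had the most Foxa1 (61.45 TPM) and the least Tfcp2l1 (94.65 TPM). Elf3, Gata2, Tfcp2l1 and Pax2 also ran opposite to Aqp2 in ATF1/CREB1/CREM-KO, where Aqp2 spanned only 15.10 to 16.05 TPM. Foxa1 spanned only 29.11 to 31.94 TPM in ATF1-KO. Groups of 3 take 1 of few orders, so these are descriptions. Among the 36 pairs of factors in the first run, Gata2 and Ehf had r = -0.88, Foxa1 and Tfcp2l1 r = -0.85, Pax8 and Ehf r = 0.81, and Gata2 and Tfcp2l1 r = 0.77, over 10 libraries that share 2 groups and a fixed total.

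The gene whose values, less the own-run control mean, were most like those of a factor was searched among 10497 genes over the 22 libraries. It was Anxa11 for Foxa1 (r = 0.90), Ids for Tfcp2l1 (r = 0.91), Necap1 for Elf3 (r = 0.87), Shld1 for Ehf (r = 0.86), Hoxd3 for Gata3 (r = 0.85), Ccdc85b for Gata2 (r = 0.83), Sox13 for Grhl2 (r = 0.85) and Eif4b for Pax2 (r = 0.88). None of these 8 factors had another of the 9 as its closest gene.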

How the data were processed

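RNA libraries (SMARTer V4 cDNA, Nextera XT, paired-end reads) of 22 samples were analysed; 18 samples of the labels, from the rescue experiment, were not analysed here. The authors deposited TPM values, 1 column per library; STAR and RSEM are named in the submitters' processing notes, without version, and the genome build is not given in the sources used here. TPM keeps no depth. Members and gene lists were chosen with earlier results of these data known. From the deposited TPM, log2(TPM + 1) was tested with limma 3.58.1 (R 4.3.3, trended variances) for genes averaging 1 TPM or more across the libraries compared, against own-run control clones, with Benjamini-Hochberg adjustment over all genes. Exact permutation tests used scipy 1.17.1. Correlations and their 100000 permutations used numpy 2.4.6, with ranks from scipy. Genes were named by rule: the 9 factors and Aqp2, up to 4 called genes per direction of each list, and the most similar gene of each factor; 2 genes that the rule names are not reported here. Gene positions are from GENCODE M21 (GRCm38). Simulated data had independent normal noise, and the changed genes were drawn from the better expressed genes. The recovery rates therefore do not cover genes as low as Gata2. On these data the ATF1-KO comparison recovered 184 of 200 genes changed by 1 on the log2 scale, with 6 false calls (13139 genes tested). The ATF1/CREB1/CREM-KO comparison recovered 135 of 200 with 10 false calls (13053 tested) and the ATF1/CREB1-KO comparison 0 of 200 with 0 false calls (12354 tested). Of 200 genes changed by 2, the ATF1/CREB1-KO comparison recovered 155, with 6 false calls (12335 tested). Alternatives changed the pseudocount, filter, scaling, controls, fit and libraries.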

Additional observations from a re-analysis of the deposited data

Results flagged for a closer look

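Aqp2, the gene the factors were set against, differed between knockouts in its own-run change by a test of the difference itself (limma, 1 fit over 22 libraries). The log2 change in ATF1/CREB1/CREM-KO minus that in ATF1-KO was -6.90 (adjusted p = 5.17e-08), and minus that in ATF1/CREB1-KO it was -5.98 (adjusted p = 9.38e-06). In every library of ATF1/CREB1/CREM-KO it was below all control clones. None of the 9 factors passed this test. In the groups of 5, no factor had a library far enough from the others to be noted by Dixon's criterion (critical value 0.71).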

How the results depend on the processing

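The number of factors called in ATF1-KO was 0 under every alternative run, including the fit with the replicate block (0 called); the replicate numbers do not pair the libraries (correlations of same-numbered deviations -0.10 to 0.09, and 2 of 5 libraries correlated best with their own number). In ATF1/CREB1-KO it was 0 except with all 11 control clones, where 5 were called (Ehf, Foxa1, Gata3, Grhl2 and Pax8) beside 32.1% of genes, and with 1 fit over 22 libraries, where 1 was called (Foxa1). In ATF1/CREB1/CREM-KO it was 2 under the other settings, 0 with all 11 control clones, and 0 to 3 with 1 library left out. For the differences between knockouts it was 0 to 1 with 1 library left out: ATF1/CREB1/CREM-KO minus ATF1-KO had 1 without control clone 3 or 11 (Foxa1) or ATF1/CREB1-KO replicate 3 (Elf3). No factor was related to Aqp2 under any alternative, including control clones alone with run means removed, added after seeing the data (Tfcp2l1 r = 0.73, adjusted permutation p = 0.260).

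With all 11 control clones, changes turned to 0.64 (Elf3), 0.25 (Gata3), 0.52 (Grhl2), -0.0082 (Pax2), 0.59 (Pax8) and 0.19 (Ehf) in ATF1-KO, to -1.57 (Elf3) and -1.71 (Pax8) in ATF1/CREB1-KO, and to 0.069 (Gata3) and 0.45 (Grhl2) in ATF1/CREB1/CREM-KO; that setting mixes runs. Pax8 in ATF1/CREB1-KO turned to -0.056 with quantile normalization and -0.022 without ribosomal protein genes. Leaving out 1 library gave changes on both sides of 0 for Gata3 in ATF1-KO (-0.070 to 0.051), for Tfcp2l1 (-0.49 to 0.29), Pax2 (-0.49 to 0.12), Ehf (-0.38 to 0.034) and Pax8 (-0.10 to 0.24) in ATF1/CREB1-KO, and for Gata2 in ATF1/CREB1/CREM-KO (-0.54 to 0.76). The sign of r with Aqp2 turned for Pax2 (-0.14) without 2 libraries, for Elf3 (0.15) and Gata3 (0.15) over 22 libraries, and for Elf3 (0.26) in control clones alone. For these turns the cause was not tested, and none of them was past the threshold in its own run. Of 198 changes with 1 library left out 181 kept direction and side of the threshold, as did 205 of 224 under the other alternatives.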
